A study of Mus musculus with 12 samples.

Results

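The genes examined here are Myc and 41 genes whose products build ribosomes or supply that work, 42 genes in all, matched to probes by gene symbol in the array annotation. All 42 had a probe well above background, on all 12 arrays, so they stand within 18553 genes tested. RNA came from regulatory T cells (Treg, a CD4 T cell lineage that dampens immunity and whose identity rests on Foxp3) sorted from the spleens of female C57BL/6 mice, and was hybridised to single-colour Agilent arrays. The 4 groups of 3 arrays were Cd83 conditional knockout (KO) Treg stimulated for 3 h through CD3 and CD28 by antibodies, non-activated KO Treg (0 h), wild-type (WT) Treg after the same 3 h, and non-activated WT Treg (0 h). KO mice were 10 weeks old except for replicate 3 at 3 h and replicate 3 at 0 h, which came from mice of 21 weeks, and WT mice were 9 weeks old. The labels name no Cre driver, so the cells in which Cd83 was deleted are not given in the sources used here. The series lists 6 mice for the 12 arrays and ties no array to a mouse, so p-values treat arrays as independent although some share a mouse.

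MYC is a transcription factor that T cells induce on antigen receptor stimulation, and it raises growth in part by driving the genes of ribosome production. A ribosome begins in the nucleolus, where RNA polymerase I transcribes the precursor of ribosomal RNA. Small nucleolar ribonucleoproteins (snoRNPs) of the box C/D class guide its methylation and those of the box H/ACA class its pseudouridylation, and separate sets of assembly factors then shape the small and the large subunit. Activated T cells are known to enlarge their nucleoli before they divide.

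The arrays differ in more than genotype. All KO arrays lay on 1 slide, WT at 3 h on another and WT at 0 h on another, so KO against WT and slide cannot be told apart, nor can 3 h against 0 h in WT and slide; 3 h against 0 h in KO lies within 1 slide. Cd83 was lower on all KO arrays (0.23 to 1.92, normalized log2 signal) than on WT arrays of the same time (2.16 to 4.21). Where the probe lies relative to the deleted part is not known here. Of 12 T cell and Treg markers, all 12 were above background on every KO array and 11 on every WT array. The exception in WT was the Foxp3 probe, which was above background on all 6 KO arrays and on 0 of 6 WT arrays. Both 21-week arrays stood apart. Over the 11 T cell markers above background on all 12 arrays, which leave out Foxp3, the mean relative to WT at 0 h was -2.73 at 3 h and -2.30 at 0 h on them, against -0.48 to -0.37 on the 10-week KO arrays. Foxp3 went the other way, with signals of -3.16 at 3 h and -2.86 at 0 h on the 21-week arrays, against -6.27 to -4.09 on the 10-week KO arrays. With Foxp3 included, the marker mean was -2.01 at 3 h and -1.59 at 0 h on the 21-week arrays, against -0.21 to -0.01 on the 10-week KO arrays. The mean over 3 of 4 plasma cell markers, relative to WT at 0 h, was 7.32 at 3 h and 6.65 at 0 h on the 21-week arrays, against 0.27 to 2.53 on 10-week KO arrays. It left out Tnfrsf17, which was above background on all 3 arrays in KO at 0 h but not in the other groups. In RNA from a sorted pool, fewer cells of a type and less RNA per cell cannot be told apart. Of the macrophage markers, 8 of 8 were above background in each group, with list means of -0.40 to 0.64 in KO at 3 h, 2.22 to 2.70 in KO at 0 h, -2.39 to -2.07 in WT at 3 h and -0.32 to 0.45 in WT at 0 h. For 5 proliferation markers the means were -1.41 to 0.99 in KO at 3 h, 0.69 to 1.95 in KO at 0 h, -1.18 to -0.39 in WT at 3 h and -0.06 to 0.11 in WT at 0 h. For 5 B cell markers they were -0.15 to 2.63 in KO at 3 h, 0.69 to 2.32 in KO at 0 h, -0.76 to 0.65 in WT at 3 h and -0.80 to 1.05 in WT at 0 h. For the 3 erythroid markers above background on all arrays they were -0.75 to 3.01 in KO at 3 h, 2.60 to 3.43 in KO at 0 h, -1.91 to 1.08 in WT at 3 h and -1.24 to 1.17 in WT at 0 h. The part of other cell types in the results below was not tested.

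MYC, with its partner MAX, binds DNA at the E-box CACGTG, which reads the same on both strands. RefSeq promoter windows (build GRCm38.p6, 250 bases before to 50 after the start of a gene) were available for 36 of the 42 genes, and 8 of these 36 (22.2%) held CACGTG: Mybbp1a, Wdr43, Utp20, Tsr1, Pes1, Nop2, Nle1 and Grwd1. Over all symbols of the table the share was 8.09%. The stretches around the E-box are shown for Wdr43, called higher at 3 h in WT, Utp20, called lower there, and Nop2 and Nle1, called lower at 3 h in KO without the 21-week arrays. Capitals mark the E-box, each stretch is read 5′ to 3′ on the strand of its gene, and the first base of the E-box lies at +18 (Wdr43), +38 (Utp20), -60 (Nop2) and +24 (Nle1) counted from the start of the gene as +1.
Wdr43, chr17:71616220-71616249, plus strand: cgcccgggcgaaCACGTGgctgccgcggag
Utp20, chr10:88826765-88826789, minus strand: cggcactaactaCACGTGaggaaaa
Nop2, chr6:125131811-125131840, plus strand: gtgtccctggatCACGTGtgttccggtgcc
Nle1, chr11:82908355-82908384, minus strand: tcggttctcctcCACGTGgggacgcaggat
A match is a string of letters and not a measured binding site. Of the genes with a window, 1 of the 7 called higher and 1 of the 5 called lower at 3 h in WT held it.

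After 3 h of activation some of the 42 genes were called higher and some lower, and most were not called. Ddx21 rose and Polr1b and 3 of the 4 box H/ACA proteins fell in both genotypes, and Nop56 and Gnl3 rose in WT. With limma over all arrays, 1 gene rose and 4 fell in KO, where 7.38% of all genes tested rose and 9.78% fell. In WT 8 rose and 5 fell, where 13.3% of all genes rose and 16.6% fell. The median difference of the 42 genes was -0.09 in KO and -0.05 in WT (log2); over all genes it was -0.04 in KO and -0.13 in WT. The counts are not read as a result about the 42 genes, since calls were this common over the whole array. Counts by role below are to be read beside the same shares of all genes. Groups that did not overlap were common too. In KO all 3 h arrays lay above all 0 h arrays for 10.9% of all genes and below for 13.5%, and in WT for 29% and 39.4%. Statements below that groups did not overlap are to be read beside these shares. All 5 genes called in KO were called in WT in the same direction, and 39 of 42 had the same sign in both genotypes. KO and WT share no array in these comparisons, but they share the model's estimate of spread. The matching shares over all genes were not computed, so this agreement is not read as a result about the 42 genes. The other 8 called in WT were not called in KO. The difference between the activation effects was called for 0 of the 42 genes (0 higher and 0 lower, as for 0% of all genes). At an unadjusted p under 0.05 in limma there were 0 higher and 1 lower, Gnl3, where 1.85% of all genes were higher and 1.84% lower.

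**Figure D1:**
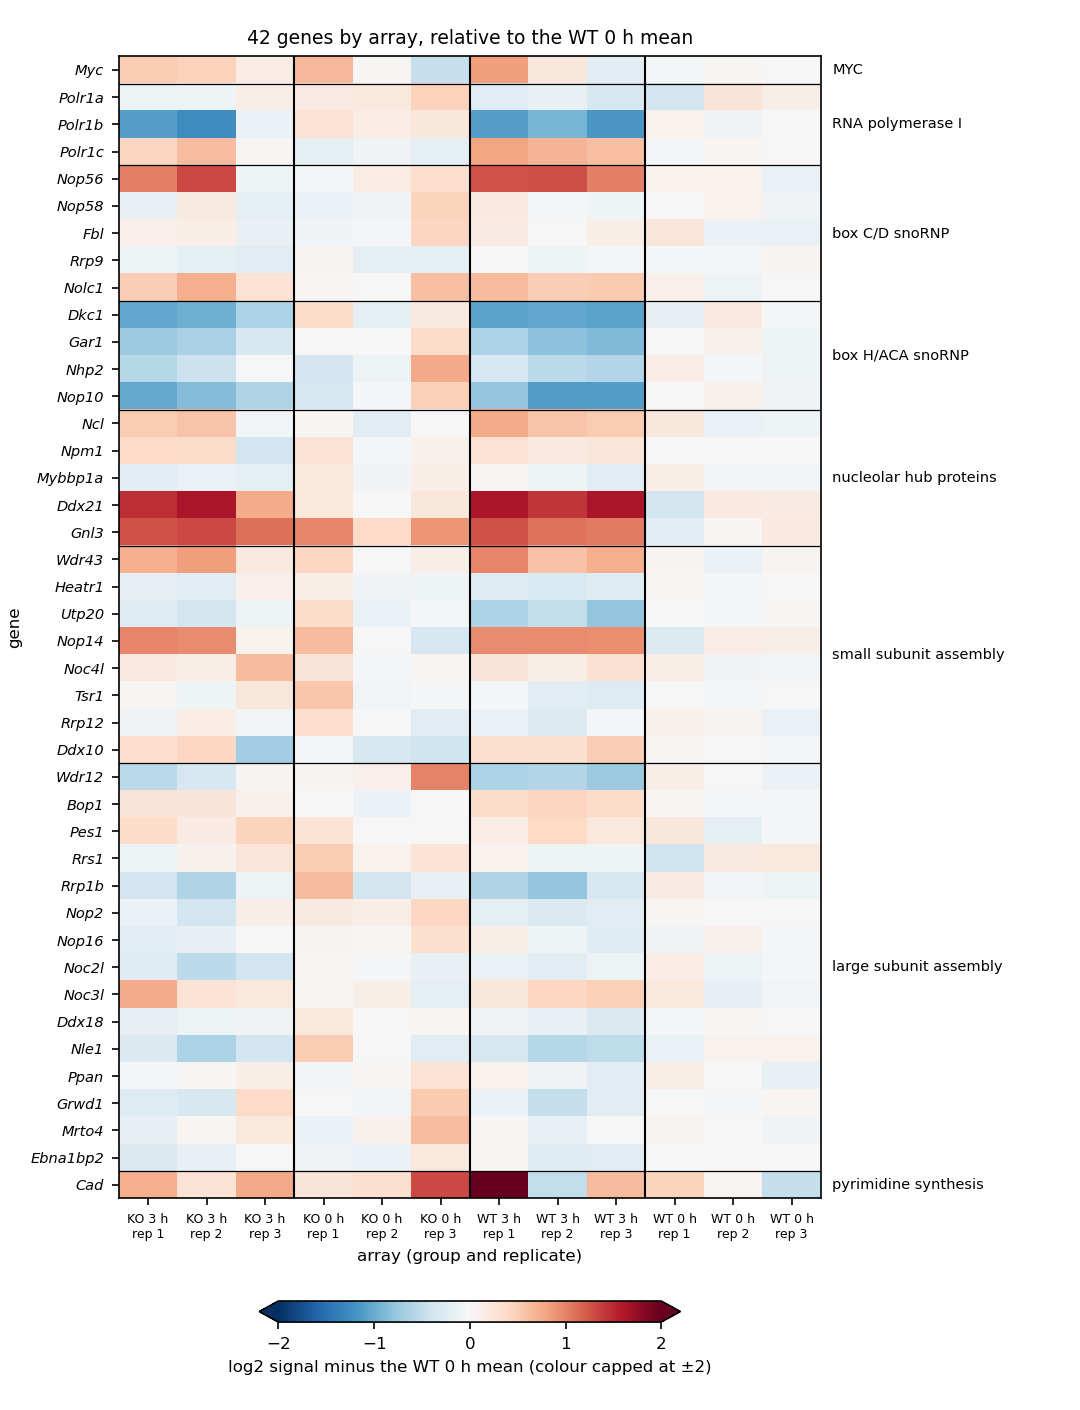
Each row is a gene and each column an array, with colour giving the normalized log2 signal minus the WT 0 h mean of that gene (red above, blue below, capped at ±2), and rows ordered by role. Dkc1, Gar1 and Nop10 are blue on the 3 h arrays of both genotypes and Ddx21 is red there, while replicate 3 of KO at 3 h, from 21-week mice, is paler than replicates 1 and 2 for most of these.

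**Figure D2:**
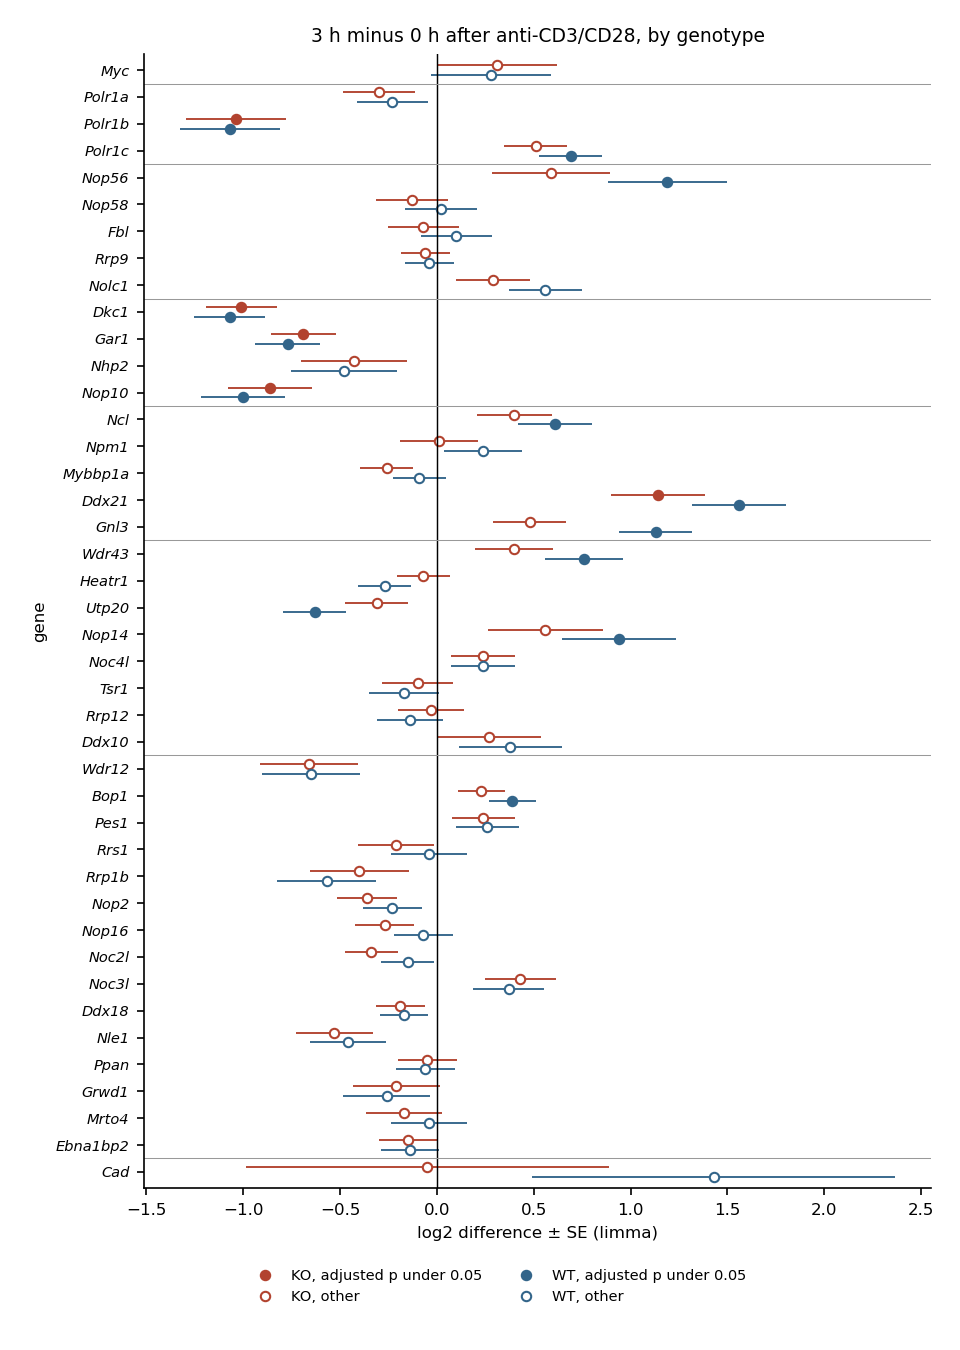
Points give the log2 difference of 3 h minus 0 h for each gene in KO and in WT, bars are ± 1 SE of the limma model (3 arrays per group), and filled points have an adjusted p under 0.05. Points of a gene lie on the same side of 0 in both genotypes for 39 of 42 genes, and the filled points number 5 in KO and 13 in WT.

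The 21-week array at 3 h weighs on these counts. Over the 8 genes that rose in WT, the mean level relative to WT at 0 h was 0.83, 0.93 and 0.26 on the 3 KO arrays at 3 h, the last being the 21-week array, against 0.26, 0.01 and 0.13 on the KO arrays at 0 h. Both sets of genes were picked by their calls in WT, so a gap between the WT groups was built in. In WT the mean of the 8 was 0.99, 0.88 and 0.85 at 3 h, against -0.07, 0.03 and 0.04 at 0 h. Over the 5 that fell in WT it was -0.83, -0.82 and -0.35 in KO at 3 h, against 0.13, -0.03 and 0.25 in KO at 0 h. The 21-week array at 3 h thus lay nearer to the 0 h levels in both sets. For 5 known activation genes the mean was 2.00, 2.19 and 0.33 in KO at 3 h, against -0.19, -0.15 and -1.55 in KO at 0 h. There the 21-week array lay lowest at both times, and the 21-week array at 3 h lay well above that at 0 h. Without both 21-week arrays, which leaves 2 arrays in each KO group, 10 of the 42 rose and 8 fell in KO (all genes: 20.3% and 25.9%), and 10 rose and 9 fell in WT (all genes: 24.2% and 31.6%). The 10 that rose were the same genes in KO and in WT, namely Ddx21, Nop56, Polr1c, Nop14, Ncl, Gnl3, Nolc1, Wdr43, Ddx10 and Bop1. Of those that fell, 6 were shared, namely Polr1b, Dkc1, Gar1, Nop10, Nle1 and Wdr12. The shares of all genes called in both genotypes in that fit were not computed, so the shared calls are not read as a result about the 42 genes. The difference between the activation effects was called for 0 of the 42 genes in that fit as well.

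Myc itself was not called at 3 h in either genotype. The normalized log2 signal of Myc was -0.73, -0.77 and -1.09 in KO at 3 h, against -0.59, -1.22 and -1.69 in KO at 0 h. In WT it was -0.40, -1.01 and -1.46 at 3 h, against -1.27, -1.21 and -1.23 at 0 h. The groups overlapped in both genotypes, and the arrays of WT at 3 h spread on both sides of the closely spaced arrays of WT at 0 h. The 3 h minus 0 h difference was 0.31 ± 0.31 in KO (SE, adjusted p = 0.539) and 0.28 ± 0.31 in WT (adjusted p = 0.533). A change of Myc mRNA was not detectable with 3 arrays per group.

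Among RNA polymerase I subunits, Polr1b fell and Polr1c rose. Polr1b, which with Polr1a forms the catalytic core, had signals of -2.82, -2.97 and -1.84 in KO at 3 h, against -1.43, -1.58 and -1.49 in KO at 0 h, and -2.82, -2.66 and -2.89 in WT at 3 h, against -1.65, -1.79 and -1.73 in WT at 0 h. Its probe lies at chr2:128951870-128951929 (mm9). Every 3 h array lay below every 0 h array of its genotype, with the 21-week array closest to them. The difference was -1.04 ± 0.258 in KO (adjusted p = 0.0219) and -1.07 ± 0.258 in WT (adjusted p = 0.0122). A further probe of Polr1b was above background on 7 of 12 arrays and was not called (adjusted p = 0.08 in KO and 0.0755 in WT, over all probes). Polr1c, a subunit that RNA polymerase I shares with RNA polymerase III, had 1.00, 1.18 and 0.59 in KO at 3 h, against 0.37, 0.49 and 0.39 in KO at 0 h, and 1.36, 1.24 and 1.16 in WT at 3 h, against 0.52, 0.61 and 0.56 in WT at 0 h. The groups did not overlap in either genotype. The difference in KO was 0.51 ± 0.163 (adjusted p = 0.0596), and it rose by 0.69 ± 0.163 in WT (adjusted p = 0.0109). Polr1a differed by -0.30 in KO and -0.23 in WT and was not called in either.

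**Figure D3:**
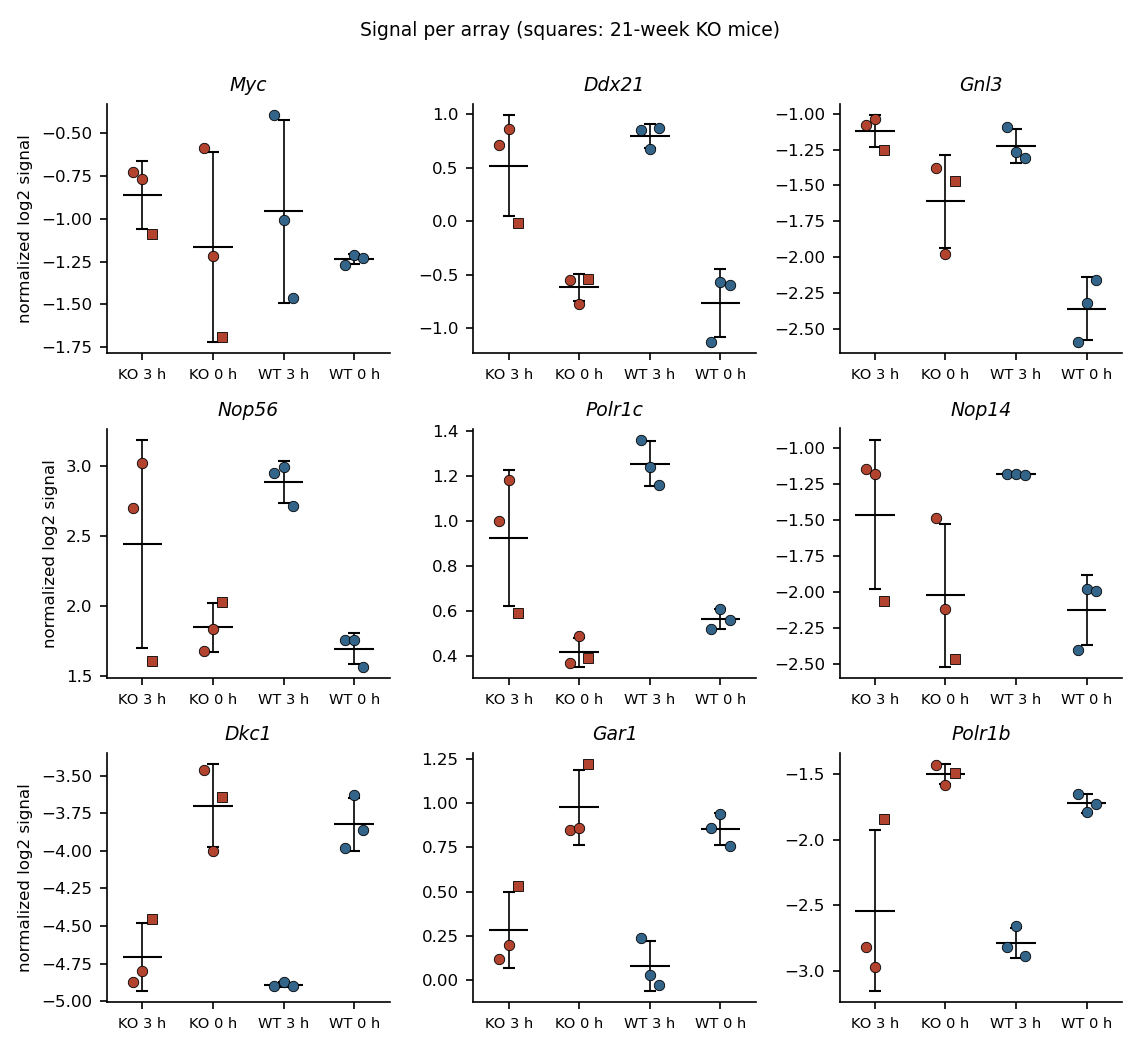
Each panel gives the normalized log2 signal of a gene on every array, with the mean as a line and the SD as a bar (n = 3 per group), and squares mark the 21-week KO arrays. For Nop56 the 21-week array at 3 h lies below the KO arrays at 0 h, for Nop14 within their range and for Polr1b just below them, and for Gnl3 the WT arrays at 0 h lie below the KO arrays at 0 h.

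Of the box C/D snoRNP proteins, 0 of 5 were called in KO and 1 rose in WT. Nop56, a scaffold protein of that particle, had 2.70, 3.02 and 1.61 in KO at 3 h, against 1.68, 1.84 and 2.03 in KO at 0 h. In WT it had 2.95, 2.99 and 2.71 at 3 h, against 1.76, 1.76 and 1.57 at 0 h. The WT groups were far apart, and in KO the 21-week array at 3 h was the lowest of all 6. The difference was 0.59 ± 0.306 in KO (adjusted p = 0.211) and 1.19 ± 0.306 in WT (adjusted p = 0.0162), a 2.28-fold rise in WT. Its other 2 probes gave differences of 0.62 and 0.77 in KO, and in WT of 1.19 and 1.63; the array annotation places 1 of them on chromosome X rather than 2, so a copy of the gene may contribute to it. Nop58, the paired scaffold, Fbl, the methyltransferase of the particle, and Rrp9 lay between -0.13 and 0.10 in both genotypes. Nolc1, a nucleolar chaperone of snoRNPs, differed by 0.29 ± 0.190 in KO (adjusted p = 0.319) and 0.56 ± 0.190 in WT (adjusted p = 0.0505), and its probes disagreed in sign, as described further down. Its dimmer probe was called lower in KO, at -0.83 ± 0.219 (adjusted p = 0.03 over all probes). In WT that probe gave -0.64 ± 0.219 and was not called (adjusted p = 0.0521 over all probes).

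Of the 4 box H/ACA proteins, 3 fell in each genotype. Dkc1 (dyskerin, the pseudouridine synthase of the particle), Gar1 and Nop10 were those that fell, and Nhp2, the other core protein, was not called (-0.43 in KO and -0.48 in WT). Dkc1 had -4.87, -4.80 and -4.45 in KO at 3 h, against -3.46, -4.00 and -3.64 in KO at 0 h, and -4.90, -4.87 and -4.90 in WT at 3 h, against -3.98, -3.63 and -3.86 in WT at 0 h. No 3 h array reached a 0 h array. The difference of Dkc1 was -1.01 ± 0.184 in KO (adjusted p = 0.00638) and -1.07 ± 0.184 in WT (adjusted p = 0.00255). With normexp background correction the difference in KO was smaller, -0.55 (adjusted p = 0.0421). Gar1 had 0.12, 0.20 and 0.53 in KO at 3 h, against 0.85, 0.86 and 1.22 in KO at 0 h, and 0.24, 0.03 and -0.03 in WT at 3 h, against 0.86, 0.94 and 0.76 in WT at 0 h. It fell by 0.69 in KO (log2; SE 0.168, adjusted p = 0.0202) and by 0.77 in WT (SE 0.168, adjusted p = 0.00754). Nop10 had 0.28, 0.45 and 0.71 in KO at 3 h, against 0.96, 1.29 and 1.78 in KO at 0 h, and 0.53, 0.19 and 0.20 in WT at 3 h, against 1.30, 1.39 and 1.24 in WT at 0 h. It fell by 0.86 in KO (SE 0.217, adjusted p = 0.0241) and by 1.00 in WT (SE 0.217, adjusted p = 0.00748). For Gar1 and Nop10 too, the groups did not overlap in either genotype.

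Of the nucleolar hub proteins, 1 of 5 rose in KO and 3 in WT, and 0 fell. Ddx21, an RNA helicase of the nucleolus that acts in ribosomal RNA transcription and processing, was the only one of the 42 genes called higher in both genotypes over all arrays. Its brighter probe had 0.71, 0.86 and -0.02 in KO at 3 h, against -0.55, -0.77 and -0.54 in KO at 0 h, and 0.85, 0.67 and 0.87 in WT at 3 h, against -1.13, -0.57 and -0.60 in WT at 0 h. The groups did not overlap, and the 21-week array was the lowest of the KO arrays at 3 h. The rise was 1.14 ± 0.242 in KO (adjusted p = 0.0119, 2.20-fold) and 1.56 ± 0.242 in WT (adjusted p = 0.0015, 2.96-fold). Averaged over its probes, the difference of Ddx21 was 0.41 in KO (adjusted p = 0.0949) and 0.60 in WT (adjusted p = 0.0157). Gnl3 (nucleostemin, a GTPase of the nucleolus) had -1.08, -1.04 and -1.25 in KO at 3 h, against -1.38, -1.98 and -1.47 in KO at 0 h, and -1.09, -1.27 and -1.31 in WT at 3 h, against -2.59, -2.32 and -2.16 in WT at 0 h. The genotypes met at 3 h, and WT began lower. The difference in KO was 0.48 ± 0.189 (adjusted p = 0.108), and Gnl3 rose by 1.13 ± 0.189 in WT (adjusted p = 0.00221). Ncl (nucleolin) differed by 0.40 ± 0.193 in KO (adjusted p = 0.185) and rose by 0.61 ± 0.193 in WT (adjusted p = 0.0387). Npm1 (nucleophosmin, a histone and ribosome chaperone) differed by 0.01 in KO and 0.24 in WT, and Mybbp1a by -0.26 in KO and -0.09 in WT.

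Of the 8 small subunit assembly factors, 0 were called in KO, and 2 rose and 1 fell in WT. Nop14, a component of the small subunit precursor particle, had -1.15, -1.18 and -2.06 in KO at 3 h, against -1.49, -2.12 and -2.46 in KO at 0 h, and -1.18, -1.18 and -1.19 in WT at 3 h, against -2.40, -1.98 and -1.99 in WT at 0 h. In KO, where the groups overlapped, the difference was 0.56 ± 0.296 (adjusted p = 0.221), and in WT, where they did not, it rose by 0.94 ± 0.296 (adjusted p = 0.0376). With quantile normalization Nop14 was not called in WT (adjusted p = 0.0521). Wdr43, which links transcription of the precursor to its first cleavages, had 0.24, 0.36 and -0.28 in KO at 3 h, against -0.05, -0.47 and -0.36 in KO at 0 h, and 0.51, 0.12 and 0.25 in WT at 3 h, against -0.41, -0.59 and -0.41 in WT at 0 h. It differed by 0.40 ± 0.202 in KO, where the groups overlapped (adjusted p = 0.2), and rose by 0.76 ± 0.202 in WT (adjusted p = 0.0179). Averaged over its probes, Wdr43 differed by 0.25 in WT (adjusted p = 0.371). In KO Utp20 had -4.23, -4.34 and -4.07 at 3 h, against -3.60, -4.10 and -4.00 at 0 h, a difference of -0.31 (adjusted p = 0.214). In WT it had -4.58, -4.47 and -4.74 at 3 h, against -3.96, -4.00 and -3.95 at 0 h, and fell by 0.63 (SE 0.163, adjusted p = 0.0165). Heatr1, Noc4l, Tsr1, Rrp12 and Ddx10 lay between -0.27 and 0.38 in both genotypes, with Ddx10, an RNA helicase, the highest.

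Of the 15 large subunit assembly factors, each taken at its brightest probe, 0 were called in KO and 1 rose in WT over all arrays. Of the 15 differences, 12 lay below 0 in each genotype, as did 52.8% of all genes in KO and 57% in WT. Further large subunit assembly genes, 39 in number, leaned the other way. Of these, 32 lay above 0 and 7 below in KO, and 34 above and 5 below in WT. Without the 21-week arrays, Bop1 rose and Nop2, Noc2l, Wdr12 and Nle1 fell in KO. With age as a term in the model, Noc3l rose and the same 4 fell in KO. Bop1, which with Pes1 and Wdr12 forms a complex needed for maturation of the large subunit, had 1.37, 1.38 and 1.20 in KO at 3 h, against 1.12, 1.00 and 1.13 in KO at 0 h, and 1.48, 1.55 and 1.49 in WT at 3 h, against 1.15, 1.10 and 1.10 in WT at 0 h. The groups did not overlap, but the rise was small, 0.39 ± 0.120 in WT (adjusted p = 0.0362, 1.31-fold). Its partner Pes1 differed by 0.24 in KO and 0.26 in WT. Wdr12, the remaining partner, differed by -0.66 ± 0.254 in KO (adjusted p = 0.103) and -0.65 ± 0.254 in WT (adjusted p = 0.0812) at its brighter probe, which the file places on chromosome 7. A copy of the gene may contribute to that probe. The other probe of Wdr12, on chromosome 1, was called lower in both genotypes. It gave -1.08 in KO (adjusted p = 0.00511 over all probes) and -1.02 in WT (adjusted p = 0.0034 over all probes). So within this complex, Bop1 and Wdr12 lay on opposite sides of 0. Nle1, a partner of the large subunit precursor, differed by -0.53 ± 0.198 in KO (adjusted p = 0.0921) and -0.46 in WT, and Noc3l by 0.43 in KO and 0.37 in WT.

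Cad, the enzyme that begins pyrimidine synthesis, was measured by 1 probe. It read -5.61, -6.04 and -5.56 in KO at 3 h, against -6.06, -6.00 and -5.00 in KO at 0 h, and -2.16, -6.80 and -5.68 in WT at 3 h, against -5.87, -6.28 and -6.79 in WT at 0 h. A single WT array at 3 h, replicate 1, lay apart from the other 11, and the WT difference of 1.43 ± 0.938 (adjusted p = 0.281) rests on it.

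Probes of a gene did not always agree. Of the 15 genes with more than 1 probe tested, 4 had probes of opposite sign for 3 h against 0 h in KO (Npm1, Ddx21, Wdr43 and Nolc1) and 4 in WT (Ddx21, Wdr43, Ebna1bp2 and Nolc1). For Ddx21, Wdr43 and Nolc1 it was the probe nearer to the 3′ end of the same transcript that read lower at 3 h. Parts of both probes of each gene, the last 30 of their 60 bases, are shown so that the measured stretches can be told apart; positions follow the array annotation, on mm9.
Ddx21 5′ probe, chr10:62044862-62044891, minus strand: tacaaagtaaaaccaaccatggatctgcct
Ddx21 3′ probe, chr10:62043317-62043346, minus strand: gggaagaagggaagaattccaattgacaca
Wdr43 5′ probe, chr17:72007186-72007215, plus strand: taagagtgtttcattcaaatgttAATAAAc
Wdr43 3′ probe, chr17:72008058-72008087, plus strand: accagtaatttgtcttgtttctaaggagtg
Nolc1 5′ probe, chr19:46158905-46158934, plus strand: ttcatactgagagatttgtatattttatat
Nolc1 3′ probe, chr19:46159365-46159394, plus strand: gcaacaacttgactgttgtatattgacaag
Capitals mark AATAAA, the sequence of the usual polyadenylation signal. It occurs in the Wdr43 5′ probe, in 0 of the other 5 probes shown, and in 10.1% of the 55681 distinct probes on the array, and no transcript end was measured here.

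The 3′ probe of Ddx21 had -1.69, -1.91 and -1.89 in KO at 3 h, against -1.57, -1.36 and -1.63 in KO at 0 h, and -1.79, -1.76 and -1.89 in WT at 3 h, against -1.41, -1.51 and -1.46 in WT at 0 h. So it lay lower on every 3 h array than on every 0 h array of its genotype, while the 5′ probe rose. A model of the 3′ minus 5′ log2 signal was fitted over 2747 genes with such a pair, 9 of them among the 42, a comparison added after the data had been seen. The ratio of 3′ to 5′ signal fell at 3 h for Ddx21, by 1.44 in KO (SE 0.252, adjusted p = 0.0102) and by 1.92 in WT (SE 0.252, adjusted p = 0.00158). It fell for Wdr43 by 0.74 in KO (SE 0.174, adjusted p = 0.0291) and by 1.04 in WT (SE 0.174, adjusted p = 0.00389). For Nolc1 the difference in KO was -1.12 ± 0.305 (adjusted p = 0.0502), and in WT the ratio fell by 1.19 (SE 0.305, adjusted p = 0.0224). That makes 2 of 9 called lower in KO, where 7.28% of all pairs were, and 3 of 9 in WT, where 17.2% were. The ratio was called higher for 0 of the 9 in either genotype, where 0.874% of all pairs were in KO and 1.67% in WT; at an unadjusted p under 0.05 the higher count was 0 too. A lower 3′ to 5′ ratio was common over the array, since 68.6% of all pairs lay below 0 in KO, with a median of -0.16, and 76.7% in WT, with a median of -0.25. For the other 6 genes with a pair, the differences ran from -0.57 to 0.44 and none was called. In Ncl, another gene with such a pair, the difference was -0.05 in KO and -0.04 in WT.

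**Figure D4:**
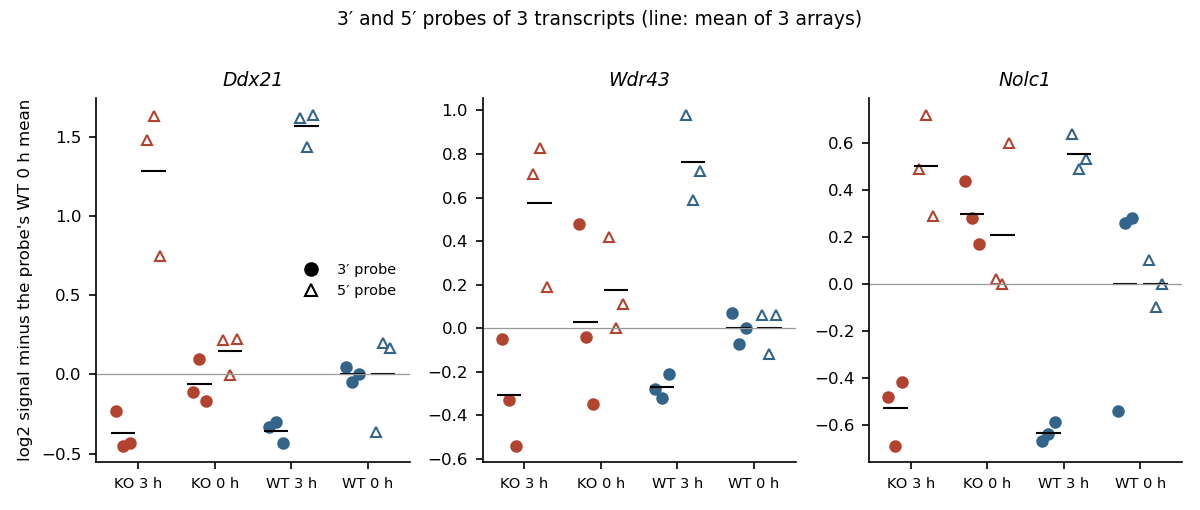
Each point is the log2 signal of a probe on an array minus the WT 0 h mean of that probe, filled circles for the 3′ probe and open triangles for the 5′ probe, with lines at the mean of 3 arrays. For Ddx21 the 5′ probe is above 0.7 on every 3 h array and the 3′ probe below -0.2 on each of them.

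KO and WT Treg were compared at each time, a comparison in which genotype, slide and mouse age differ together. At 0 h the differences ran from -0.24 to 0.75 with a median of 0.10, beside -0.03 over all genes, and 0 of the 42 were called higher or lower by limma, where 1.82% of all genes were higher and 0.259% lower. At an unadjusted p under 0.05 there were 1 higher and 0 lower, where 10.6% of all genes were higher and 4.77% lower. That gene was Gnl3, with -1.38, -1.98 and -1.47 in KO, against -2.59, -2.32 and -2.16 in WT. Its groups did not overlap, with all KO arrays above all WT arrays, as for 16.9% of all genes. The difference was 0.75 ± 0.189 (adjusted p = 0.0822), and Gnl3 was called when KO replicate 3 at 3 h was left out of the model. At 3 h the differences ran from -0.86 (Cad) to 0.39 with a median of 0.07, beside 0.04 over all genes, and 0 were called by limma, where 1.26% of all genes were higher and 0.189% lower. At an unadjusted p under 0.05 there were 1 higher and 0 lower, where 7.86% of all genes were higher and 2.72% lower. That was Utp20, with -4.23, -4.34 and -4.07 in KO, against -4.58, -4.47 and -4.74 in WT, a difference of 0.39 ± 0.163 (adjusted p = 0.438). The sign of both medians depended on the scaling: with the 75th percentile over all probes they were -0.09 at 0 h and -0.13 at 3 h (all genes -0.21 and -0.16), and at 3 h the median was -0.02 with quantile normalization (all genes -0.11), -0.03 in the deposited log2 table (all genes -0.12) and -0.34 without any shift (all genes -0.36). Myc differed by 0.07 ± 0.310 at 0 h (adjusted p = 0.936) and by 0.09 ± 0.310 at 3 h (adjusted p = 0.891). Wdr12 differed by 0.38 ± 0.254 and 0.37 ± 0.254 at 0 h and 3 h, and the 21-week array was its highest KO array at both times. Without the 21-week arrays Wdr12 differed by 0.08 at 0 h and 0.21 at 3 h. Nop56 differed by -0.44 ± 0.306 at 3 h, where the 21-week array was lowest, and by -0.02 without the 21-week arrays. A miss of the threshold does not show that the genotypes were alike. Apart from Cad, the SE of the KO against WT differences over all arrays ran from 0.120 (Bop1) to 0.310 (Myc).

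**Figure D5:**
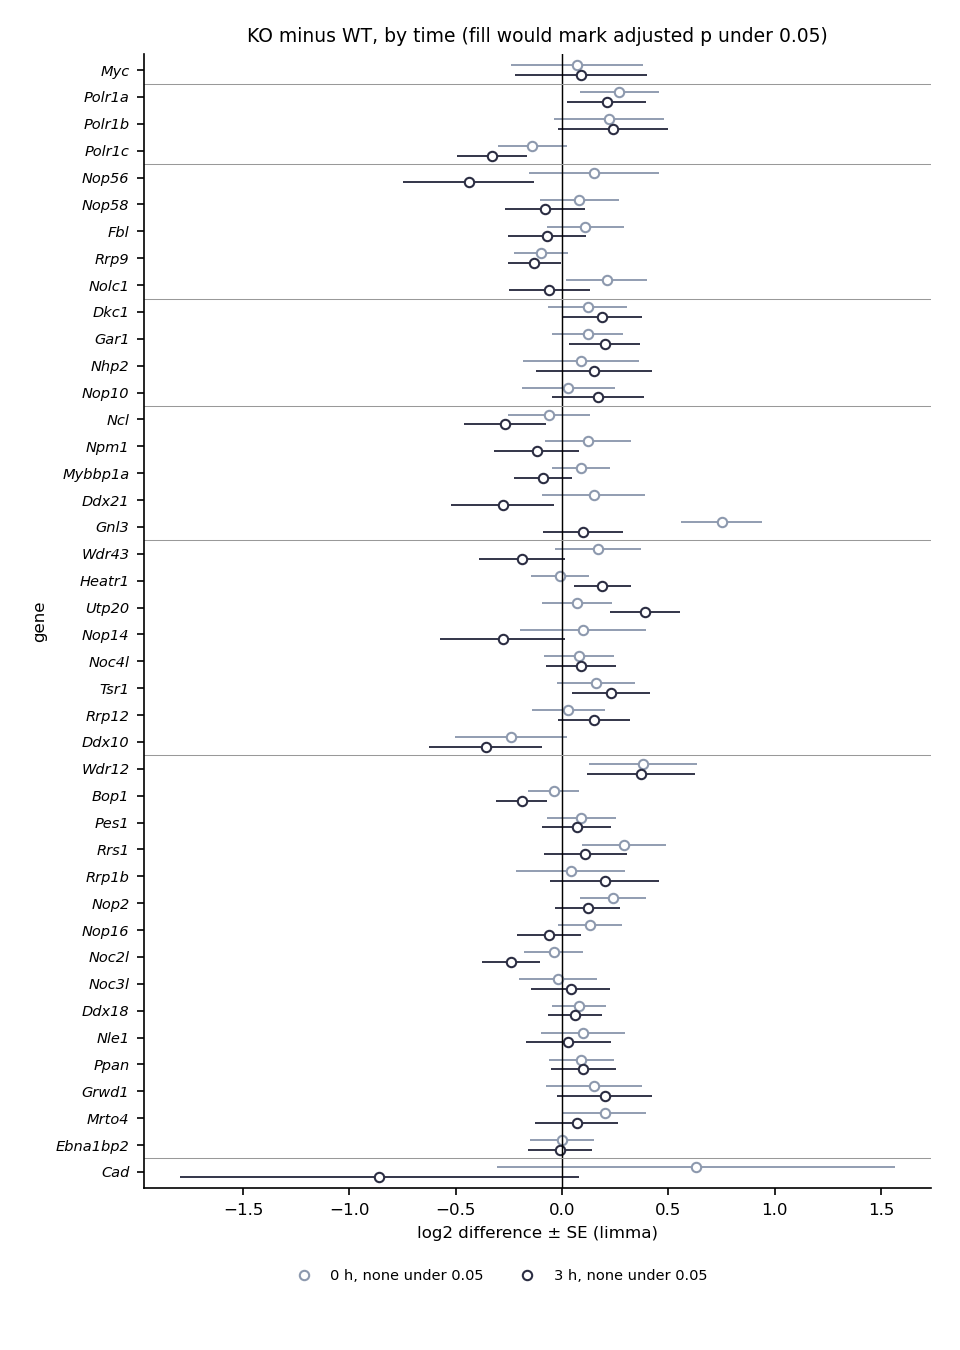
Points give the log2 difference of KO minus WT for each gene at 0 h and at 3 h, with bars of ± 1 SE of the limma model (3 arrays per group), and 0 of the points reach an adjusted p under 0.05. Gnl3 at 0 h lies highest at 0.75, and Cad at 3 h lies lowest at -0.86 with an SE of 0.938.

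Other genes of the pathway were called in both directions at 3 h. Of 104 further ribosome biogenesis genes tested (polymerase I machinery, snoRNP assembly, small and large subunit assembly and the RNA exosome), 6 rose and 5 fell at 3 h in KO, and 19 rose and 12 fell in WT, where of all genes 7.38% rose and 9.78% fell in KO and 13.3% rose and 16.6% fell in WT. Between genotypes 0 were called at either time by limma. At an unadjusted p under 0.05 there were 3 higher and 0 lower at 0 h, where 10.6% of all genes were higher and 4.77% lower. At 3 h there were 1 higher and 0 lower, where 7.86% of all genes were higher and 2.72% lower. Riok1, an atypical kinase of small subunit maturation, rose by 1.95 ± 0.374 in WT (adjusted p = 0.00418), and Riok2, a related kinase, by 0.74 ± 0.187 in KO (adjusted p = 0.0246) and 0.83 ± 0.187 in WT (adjusted p = 0.009). Among RNA polymerase I factors, Taf1d rose by 1.46 ± 0.35 in WT (adjusted p = 0.0117), and Ubtf, which binds ribosomal DNA, by 0.86 ± 0.207 (adjusted p = 0.0119). Of the large subunit genes, Rrp1 and Las1l were called higher in both genotypes (0.64 and 0.69 in KO, 0.82 and 0.85 in WT). Rpf2 was called lower in both (-0.85 in KO and -1.14 in WT). The snoRNP assembly factors Nufip1 and Znhit6 fell in both genotypes, Nufip1 by 1.13 in KO (adjusted p = 0.0236) and 1.56 in WT (adjusted p = 0.00323), and Znhit6 by 0.80 in KO (adjusted p = 0.018) and 1.07 in WT (adjusted p = 0.00288). Znhit3, of the same list, rose by 0.49 ± 0.161 in WT (adjusted p = 0.0438). Of 10 subunits of the RNA exosome, which trims precursor RNA, 2 fell in KO and 3 in WT, led by Exosc7 (-1.09 ± 0.208 in KO and -1.47 ± 0.208 in WT) and Exosc5 (-0.88 ± 0.202 in KO and -1.12 ± 0.202 in WT).

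Of 15 further genes of nucleotide synthesis, 0 rose and 6 fell in KO, and 3 rose and 5 fell in WT, to be read beside the same shares of all genes. Atic, an enzyme of purine synthesis, fell by 1.06 in KO (SE 0.139, adjusted p = 0.0016) and by 0.90 in WT (SE 0.139, adjusted p = 0.00145). Prps2, which makes the sugar phosphate donor of nucleotides, fell by 1.67 in KO and by 1.61 in WT (SE 0.242 each). Gart, another purine enzyme, fell by 1.39 in KO (SE 0.195, adjusted p = 0.0021), and Dhodh, an enzyme of pyrimidine synthesis, fell by 1.20 in WT (SE 0.165, adjusted p = 0.00084). In the network of MYC dimers, 11 of 13 listed genes were tested. Mycn, a paralog of Myc, was above background on all 3 KO arrays at 0 h, on 0 of 3 KO arrays at 3 h, on 0 of 3 WT arrays at 3 h and on 0 of 3 WT arrays at 0 h. Its signals in KO at 0 h were -6.57, -6.25 and -3.97, the last on the 21-week array, at least 3.32-fold higher than in WT at 0 h. At 3 h in KO it was at least 1.94-fold lower than at 0 h. Mxi1, a MAX partner that opposes MYC, was above background on 1 of 3 KO arrays at 3 h, on 0 of 3 at 0 h, on all 3 WT arrays at 3 h and on 0 of 3 at 0 h, and was at least 2.28-fold higher in WT at 3 h than at 0 h. Both genes entered the test only through the group in which they are high, so their values are a description, with no test. These bounds set the brighter group against the lowest signal called above background on the dimmer arrays and depend on that call. Where 1 spot above background was enough for a probe they were 8.16-fold and 3.36-fold for Mycn and 4.45-fold for Mxi1.

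Single arrays changed some counts by more than 1.5 times. In KO the number that rose was 7 without replicate 3 at 3 h, and the number that fell was 1 without replicate 1 or 2 at 3 h and 2 without replicate 2 at 0 h, against 1 and 4 over all arrays. Of all 18553 genes, 3146 rose in KO without replicate 3 at 3 h, against 1369 over all arrays. The number of all genes that fell was 1128 without replicate 1 at 3 h, 1058 without replicate 2 at 3 h and 1015 without replicate 2 at 0 h, against 1814. In WT the number that rose, 8 over all arrays, was 3 without WT replicate 1 at 3 h, 4 without WT replicate 2 or 3 at 3 h or WT replicate 2 or 3 at 0 h, and 5 without KO replicate 2 at 0 h. Of all genes, 1530 to 1632 rose in WT without 1 of those WT arrays and 2283 without KO replicate 2 at 0 h, against 2467 over all arrays. Fitted on the KO arrays alone, 0 rose and 0 fell (all genes: 43 and 61 of 18553). On the WT arrays alone 12 rose and 11 fell (all genes: 4778 and 6484). Averaging the probes of a gene in place of its brightest left 0 higher and 5 lower in KO (all genes: 1406 and 1802), where Ddx21 was not called. In WT it left 7 higher and 6 lower (all genes: 2518 and 3003).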

How the data were processed

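The authors deposited 12 scanner files from a single-colour Agilent array; per the file headers, the processed spot intensity had its background subtracted and a spatial trend removed (Feature Extraction 10.7.3.1 in the headers, 11 in the submitters' processing notes). The authors also deposited a log2 table for these arrays, for which the notes name Partek without a version or the scaling; it served as an alternative.

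Control and outlier spots were left out and spots of a probe averaged on the log2 scale. Since 46.36% of probes on average were well above background (every spot of a probe passing, a rule set after the data had been seen; accepting any spot changed no count of the 42 genes), the log2 signals of an array were lowered by their 75th percentile, taken from the 19786 probes above background on all 12 arrays (1544 to 3110 intensity units). The number of arrays limits the precision. A gene is represented by its brightest probe among those above background on all 3 arrays of a group. Symbols are those of the array design, and probe coordinates are mm9. Tests used R 4.3.3 and limma 3.58.1 (linear fit with moderated variances, two-sided), with 1 model of 4 group means with 8 residual degrees of freedom and Benjamini-Hochberg adjustment over 18553 genes, threshold 0.05; the model was tested on simulated data. Errors are model SE. Probe pairs are the outermost probes of a transcript at least 100 bases apart.

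Members, lists and comparisons were chosen with earlier results of these data known. The rule for naming took Myc first. In each comparison and role it took up to 4 called genes with the largest moderated statistic, otherwise up to 2 with the largest difference. It also took up to 3 called genes of each other list, and genes whose probes disagree in sign. Not every gene it picked is given here. Other genes are named for completeness of their role, after their values were seen. Alternatives covered scaling, background correction, probe filter, choice of probe, samples in the model, age and each array left out. Per the labels' protocols, amplification began from 20 ng of RNA for sample 1 at 0 h, of unstated genotype, and 40 ng for others.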

Additional observations from a re-analysis of the deposited data

How the results depend on the processing

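No paired analysis was possible because the labels carry no replicate numbers (those used here follow accession order and only name arrays) and, beyond the age of 21 weeks on 1 KO array at each time, tie no array to a mouse. None of the 42 genes among those named changed sign while called under any alternative run. No alternative put a dimmer probe of a gene alone in place of its brightest, so a reversal between probes could not appear there. For KO against WT and for the difference between the activation effects, 0 genes were called under every alternative, except that leaving out 1 array gave 0 to 1 higher at 0 h. For 3 h against 0 h in KO (1 higher and 4 lower), the higher count was 0 without any shift between arrays, 2 with only probes above background on all arrays, 0 when probes of a gene were averaged, 0 with only the KO arrays, 10 without the 21-week arrays and 4 with an age term; the lower count was 1 without a filter on dim probes, 0 with only the KO arrays, 8 without the 21-week arrays and 9 with an age term. Leaving out 1 array at a time gave 1 to 7 higher and 1 to 6 lower. The counts over all genes moved too, from 1369 higher and 1814 lower of 18553 in KO. They were 268 and 2191 without any shift and 3310 and 3823 with an age term. With only probes above background on all arrays they were 1330 and 1476 of 14713 genes, and without the filter 805 and 1110 of 34602. In WT (8 higher and 5 lower), the higher count was 2 without any shift, 5 with the deposited log2 table and 5 without the filter, and the lower count 3 without any shift, 11 with only the WT arrays and 9 without the 21-week arrays. Leaving out 1 array at a time gave 3 to 10 higher and 4 to 7 lower. Over all genes, 2467 were higher and 3071 lower of 18553 in WT in the main fit. The counts were 1163 and 1658 without any shift and 2287 and 2724 with the deposited log2 table. Without the filter they were 1752 and 2381 of 34602 genes. Without any shift between arrays the median of all genes was -0.34 for 3 h against 0 h in KO, and the members' median was -0.39. The model with only the KO or WT arrays has fewer residual degrees of freedom and its own estimate of spread; the cause of the other moves was not tested. Genes not called may still differ, and signal near background limits the fold of Mycn and Mxi1 to a bound.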
